A study of Rattus norvegicus with 12 samples.

Results

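Expression of 10 genes of bone remodeling and BMP signaling was examined by RNA-seq in FLS, adherent fibroblast-like cells grown out of the joint lining of rats with adjuvant arthritis (AA). The genes were taken by symbol: Tnfsf11 (RANKL), Tnfrsf11b (osteoprotegerin, OPG), Csf1, Bmp2, Bmp4, Bmpr1a, Bmpr2, Grem1, Dkk1 and Id1. Of the 10 symbols, 9 had a record among the 22442 gene records of the deposited table. Csf1 and Bmpr1a each had 2 records, of which the one with the higher mean was used. Dkk1 matched no record and was not analysed here.

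The study asked how taurochenodeoxycholic acid (TCDCA), a taurine-conjugated bile acid, changes the transcriptome of these cells. It comprised 4 groups with 3 libraries of poly(A) RNA each. All of them came from FLS at the third passage, grown from synovium of male Sprague Dawley rats that had been injected with complete Freund's adjuvant, so the control group was arthritic as well and cells of healthy rats were not compared. FCA cells were kept in DMEM without the compound for 12 h. TCDCA was given for the same time at 10 µM in AT10, at 1 µM in AT1 and at 0.1 µM in AT01. The study describes the replicate numbers as repeated sets, and whether these were separate cultures, rats or pools of rats, as well as the age of the rats, is not given in the sources used here. The p-values below therefore measure only the spread between these libraries, which may be technical.

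RANKL is the cytokine that drives macrophage precursors to become osteoclasts, the cells that resorb bone, and CSF1 keeps those precursors alive. Osteoprotegerin is a soluble decoy receptor that binds RANKL, and synovial fibroblasts are known as a source of these factors in arthritic joints. BMPs are secreted ligands that bind paired type I and type II receptors, which phosphorylate SMAD1, SMAD5 and SMAD9. The activated SMADs switch on genes such as Id1, while secreted antagonists such as gremlin-1 hold the ligands away from their receptors.

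Values are FPKM, that is, fragments per kilobase of transcript scaled to the mapped fragments of a library, so levels of different genes can be compared per length. Library totals lay between 284210 and 309696 FPKM, and the number of reads behind a value is unknown. Of 10 markers of fibroblast-like synoviocytes, 8 had a record and all 8 were expressed, with a summed level of 3002 to 4577 FPKM per library. The summed level was 7.51 to 24.3 FPKM for 7 macrophage and osteoclast markers, at most 0.10 FPKM for 5 lymphocyte markers, at most 0.21 FPKM for 5 endothelial markers and 4.73 to 10.1 FPKM for 6 chondrocyte markers. Fewer cells of a type and less RNA per cell cannot be told apart in such bulk libraries.

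RANKL was listed at or near 0 in these cultures, whereas osteoprotegerin and Csf1 were well expressed in every library. Tnfsf11 (ENSRNOG00000049547) was listed at 0 FPKM in 11 libraries and at 0.03 FPKM in replicate 1 of AT10. It was below the limit for testing, a mean of 1 FPKM over the 12 libraries, and no test was made. Its receptor on osteoclast precursors, Tnfrsf11a (RANK), was listed at no more than 0.02 FPKM. The stretch of 250 bases before the annotated start of Tnfsf11 is shown because this gene was listed at 0 beside a well expressed decoy receptor. It lies at chr15:60114480-60114729 on the minus strand of GRCr8 in RefSeq, and in it and the other stretches below, capitals mark matches on either strand to TATAAA (the TATA box), to the letters CCAAT, to GGCGCC (a GC-rich SMAD element) or to GTCTAGAC (the palindromic SMAD box).
Tnfsf11: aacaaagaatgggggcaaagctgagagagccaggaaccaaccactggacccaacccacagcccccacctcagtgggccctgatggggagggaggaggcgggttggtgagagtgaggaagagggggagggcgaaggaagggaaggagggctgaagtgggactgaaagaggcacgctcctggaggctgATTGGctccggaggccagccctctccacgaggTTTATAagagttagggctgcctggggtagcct
TATAAA was found on the opposite strand 32 bases before the start and CCAAT on the opposite strand 64 bases before it. Over 33469 promoters of the same length, 12.9% held TATAAA, 34.0% CCAAT, 8.69% GGCGCC and 0.173% GTCTAGAC on either strand. A match is a description of the letters and not a binding site. Promoter sequences were matched for 7 of the 10 genes.

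Tnfrsf11b (MSTRG.16049) was at 21.64, 17.37 and 24.39 FPKM in the FCA libraries, 18.89, 17.83 and 20.81 FPKM in AT01, 19.62, 17.18 and 21.83 FPKM in AT1, and 22.62, 21.11 and 30.48 FPKM in AT10. The highest library was replicate 3 of AT10, and every TCDCA group overlapped the FCA group. On the log2(FPKM + 1) scale, AT10 differed from FCA by 0.21 (SE 0.18, limma adjusted p = 0.648), AT1 by -0.10 (SE 0.15) and AT01 by -0.12 (SE 0.14). The AT10 libraries all lay above the AT01 libraries, and the difference was 0.34 (SE 0.15, adjusted p = 0.867). Without replicate 3 of AT10 it was 0.18, and that of AT10 from FCA was 0.059. The ratio of Tnfsf11 to Tnfrsf11b, as log2 of both FPKM values plus 1, ranged from -4.98 to -4.18.

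Csf1 (MSTRG.9911) was at 191.52, 183.83 and 79.37 FPKM in FCA, 66.38, 156.96 and 122.44 FPKM in AT01, 66.02, 120.37 and 61.77 FPKM in AT1, and 182.06, 119.71 and 119.51 FPKM in AT10. In 4 libraries it was between 61.77 and 79.37 FPKM and in the other 8 between 119.51 and 191.52 FPKM, and the low libraries belonged to FCA (replicate 3), AT01 (replicate 1) and AT1 (replicates 1 and 3). AT1 differed from FCA by -0.83 on the log2 scale (SE 0.43, limma adjusted p = 0.496), AT01 by -0.37 (SE 0.46) and AT10 by -0.03 (SE 0.39). AT10 was above AT1 by 0.79 (SE 0.31), with an unadjusted p of 0.0444 in limma and an adjusted p of 0.748. The groups overlapped in all these comparisons. The difference of AT1 from FCA was -1.24 without replicate 3 of FCA, and that of AT10 from AT1 was 1.096 without replicate 2 of AT1, which put Csf1 past the criterion of the study in either case, with adjusted p of 0.374 and 0.501.

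Among the macrophage markers, Cd14, which was at 15.70 to 18.82 FPKM in 9 libraries, was at 3.6 to 4.6 FPKM in 3 of the 4 libraries with low Csf1 (FCA replicate 3, AT1 replicate 1 and AT01 replicate 1). Cd14 thus fell at 2 separate levels, as 4.52% of all records tested did. Of the other 6 markers of the list with a record, Cd68 was at 1.66 to 2.91 FPKM and Acp5, the tartrate-resistant acid phosphatase of osteoclasts, at 1.38 to 2.39 FPKM. Neither shared the low level of Cd14. In the 3 libraries of low Cd14, in the order above, Cd68 was at 1.70, 1.98 and 2.23 FPKM, beside a median of 2.11 FPKM over all libraries. Acp5 was at 2.39, 1.75 and 1.98 FPKM there, beside a median of 1.92 FPKM. Csf1r, the receptor of CSF1, was at 0.08 to 0.26 FPKM, and Oscar (at most 0.13 FPKM), Adgre1 and Aif1 (each at most 0.03 FPKM) were near 0. Acp5 was lower in all 9 TCDCA libraries than in the 3 FCA libraries, by -0.29 on the log2 scale (SE 0.08, unadjusted p = 0.00377 and adjusted p = 0.296 in limma), where 2.86% of all records did not overlap. The lack of overlap was not particular to this list. It was also seen for 2 of 8 fibroblast-like synoviocyte markers tested (1 higher and 1 lower) and 1 of 3 chondrocyte markers (lower). Cd68 and Cd14 overlapped, with differences of -0.06 (SE 0.12) and 0.01 (SE 0.55). The part of macrophages or osteoclasts, and of transcript assembly, in the Csf1 and Cd14 values was not tested.

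**Figure D1:**
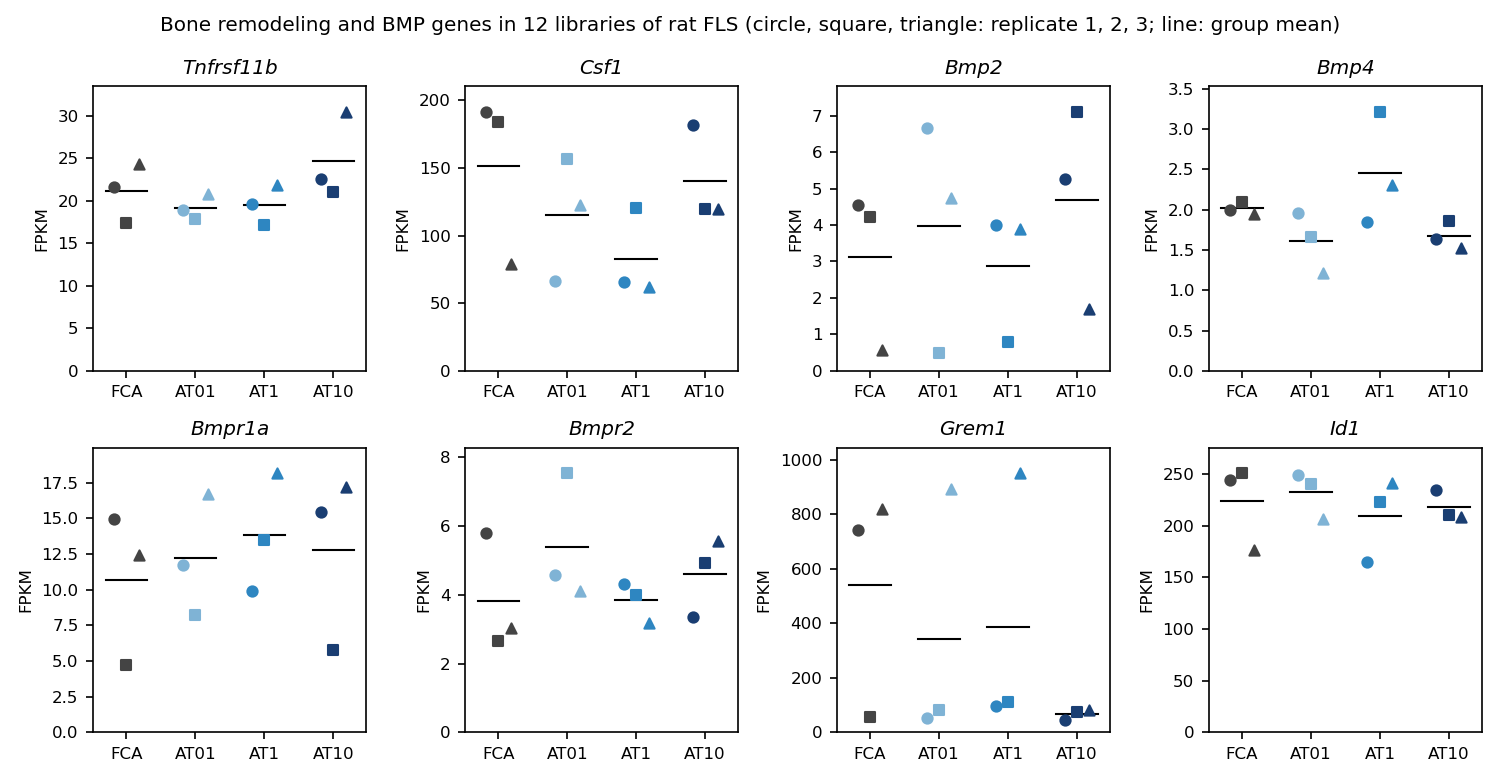
FPKM of the 8 tested genes by group (FCA, AT01, AT1 and AT10), with 1 point for each library, symbols for replicates 1 to 3 and a line at the group mean. Grem1 lies at 44.42 to 112.13 FPKM in 8 libraries and at 741.56 to 949.92 FPKM in 4, and Id1 stays between 165.11 and 250.65 FPKM throughout.

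The BMP ligands were expressed at low levels, and neither passed the test against FCA at any dose. Bmp2 (MSTRG.11691), a ligand that can induce bone, was at 4.56, 4.23 and 0.58 FPKM in FCA, 6.67, 0.49 and 4.75 FPKM in AT01, 4.0, 0.78 and 3.88 FPKM in AT1, and 5.26, 7.10 and 1.71 FPKM in AT10. Each of the 4 groups held 1 library at 1.71 FPKM or less and 2 libraries at 3.88 FPKM or more. The SD of Bmp2 over the 12 libraries was 0.89 on the log2 scale, above that of 95.9% of all records tested, and the groups overlapped widely. The differences from FCA were 0.53 for AT10 (SE 0.64, 95% interval -1.06 to 2.11), -0.03 for AT1 (SE 0.65) and 0.17 for AT01 (SE 0.79), with adjusted p of 0.742, 0.993 and 0.970 in limma.

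Bmp4 (MSTRG.6259), a ligand of the same subfamily, was at 2.00, 2.09 and 1.95 FPKM in FCA, 1.96, 1.66 and 1.21 FPKM in AT01, 1.84, 3.21 and 2.30 FPKM in AT1, and 1.64, 1.86 and 1.52 FPKM in AT10. The 3 AT10 libraries all lay below the 3 FCA libraries. The difference was -0.17 on the log2 scale (SE 0.09, 95% interval -0.39 to 0.04) with an adjusted p of 0.478 in limma, and the exact permutation test gave 0.1, the smallest p that 3 libraries against 3 allow. Bmp4 was the only one of the 8 genes whose AT10 and FCA libraries did not overlap, while 19.9% of all records tested did not overlap in this comparison. AT1, by contrast, had the highest library, and its differences were 0.18 from FCA (SE 0.15), 0.39 from AT01 (SE 0.19, adjusted p = 1.00) and, as AT10 minus AT1, -0.35 (SE 0.16, adjusted p = 0.748).

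The BMP receptors varied between libraries of the same group more than between groups, which was usual among the records. The share of the spread between groups was 8.18% for Bmpr1a and 25.0% for Bmpr2, and the median over all records tested was 30.2%. Bmpr1a (MSTRG.6802), a type I receptor, was at 14.95, 4.69 and 12.42 FPKM in FCA, 11.72, 8.21 and 16.71 FPKM in AT01, 9.92, 13.49 and 18.14 FPKM in AT1, and 15.45, 5.78 and 17.16 FPKM in AT10. The lowest libraries were replicate 2 of FCA and replicate 2 of AT10, and all groups overlapped. The differences from FCA were 0.24 for AT10 (SE 0.54), 0.44 for AT1 (SE 0.44) and 0.26 for AT01 (SE 0.45) on the log2 scale. Bmpr2 (MSTRG.18050), the type II receptor that pairs with it, was at 5.79, 2.64 and 3.04 FPKM in FCA, 4.57, 7.52 and 4.10 FPKM in AT01, 4.32, 3.99 and 3.18 FPKM in AT1, and 3.35, 4.91 and 5.56 FPKM in AT10. Its highest library was replicate 2 of AT01 and its lowest replicate 2 of FCA, with overlap between all groups. The differences from FCA were 0.25 for AT10 (SE 0.28), 0.05 for AT1 (SE 0.26) and 0.43 for AT01 (SE 0.31), and the adjusted p was at least 0.689 for either receptor in the 3 comparisons with limma.

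Grem1 (MSTRG.11418), which encodes the BMP antagonist gremlin-1, was the most abundant of the genes on average and fell at 2 separate levels. It was at 741.56, 55.89 and 819.85 FPKM in FCA, 53.61, 81.01 and 891.09 FPKM in AT01, 95.83, 112.13 and 949.92 FPKM in AT1, and 44.42, 74.56 and 81.62 FPKM in AT10. The high level was found in 2 FCA libraries, 1 AT01 library, 1 AT1 library and 0 AT10 libraries, and no library lay between 112.13 and 741.56 FPKM. AT10 overlapped FCA through replicate 2 of FCA and lay wholly below AT1. The difference of AT10 from FCA was -2.31 on the log2 scale (SE 1.08, 95% interval -4.99 to 0.37), with an adjusted p of 0.459 in limma. It was -3.57 with an adjusted p of 0.0391 without replicate 2 of FCA, the low FCA library, so the outcome of the test rested on that library. AT1 differed from FCA by -0.58 (SE 1.39), AT01 by -1.04 (SE 1.48), and AT10 from AT1 by -1.73 (SE 0.92, adjusted p = 0.757), which was -0.67 without replicate 3 of AT1, its high library. Of all 11611 records tested, 525 (4.52%) fell at 2 separate levels in the same sense. The Grem1 record holds 5 transcripts assembled by StringTie, and the part of the assembly in its 2 levels, in the differences drawn from them and in its mean was not tested.

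The stretch before the start of Grem1 is shown because this gene had the widest range of the group. It lies at chr3:120978320-120978569 on the minus strand, holds CCAAT 82 and GGCGCC 91 bases before the start, and has a GC content of 72.0% against a median of 51.2% over all promoters.
Grem1: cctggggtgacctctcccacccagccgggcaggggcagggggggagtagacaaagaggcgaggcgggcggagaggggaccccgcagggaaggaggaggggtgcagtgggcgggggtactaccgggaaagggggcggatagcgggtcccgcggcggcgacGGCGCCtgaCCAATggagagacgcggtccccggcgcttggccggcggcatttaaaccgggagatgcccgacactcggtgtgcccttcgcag

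Id1 (MSTRG.11799), a direct target gene of the BMP receptors that encodes an inhibitor of basic helix-loop-helix factors, varied less than the other abundant members, Grem1 and Csf1. Its SD over the 12 libraries was 0.20 on the log2 scale, above that of 55.2% of all records tested. Id1 was at 244.06, 250.65 and 176.09 FPKM in FCA, 249.37, 240.53 and 206.89 FPKM in AT01, 165.11, 222.63 and 241.20 FPKM in AT1, and 234.94, 210.66 and 208.60 FPKM in AT10. The lowest libraries were replicate 1 of AT1 and replicate 3 of FCA, and all groups overlapped. The differences from FCA were -0.02 for AT10 (SE 0.15, 95% interval -0.39 to 0.35), -0.09 for AT1 (SE 0.20, interval -0.59 to 0.40) and 0.07 for AT01 (SE 0.16, interval -0.33 to 0.47), with adjusted p of 0.966, 0.863 and 0.936 in limma. The stretch before its start is shown because Id1 is the BMP target gene among the members. It lies at chr3:161671314-161671563 on the plus strand, with TATAAA 59 bases before the start and CCAAT on the opposite strand 103 bases before it. The letters GTCTAGAC and GGCGCC were not found in this window.
Id1: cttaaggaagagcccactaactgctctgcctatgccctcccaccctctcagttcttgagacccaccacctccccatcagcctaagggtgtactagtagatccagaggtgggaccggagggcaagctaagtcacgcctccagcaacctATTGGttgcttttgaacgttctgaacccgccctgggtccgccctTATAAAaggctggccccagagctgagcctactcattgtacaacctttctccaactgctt

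Across the genes, none was called at a limma adjusted p under 0.05 in any comparison. In AT10 against FCA, 0 of 8 genes were called (0.172% of all records tested were), 0 had an unadjusted p under 0.05 (11.9% of records), and 4 were higher and 4 lower with a median difference of 0.10 against -0.01 over all records. In AT1 against FCA, 0 of 8 were called (0.0947% of records), 0 had an unadjusted p under 0.05 (11% of records), and 3 were higher and 5 lower with a median of -0.06 against 0.02. In AT01 against FCA, 0 of 8 were called (0.0947% of records), 0 had an unadjusted p under 0.05 (6.6% of records), and 4 were higher and 4 lower with a median of -0.03 against 0.00. These 3 comparisons share the FCA libraries. An F test built like that of Ballgown, which the authors used, called 0 of the 8 genes as well. The study's own criterion (a log2 change over 1 in size, and p under 0.05 without adjustment) was met by 0 of 8 genes in each of them, and by 0.706%, 0.62% and 0.758% of all records. In AT1 against FCA and AT01 against FCA, 0 of 8 genes had groups without overlap, where 19.9% and 14% of records did.

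**Figure D2:**
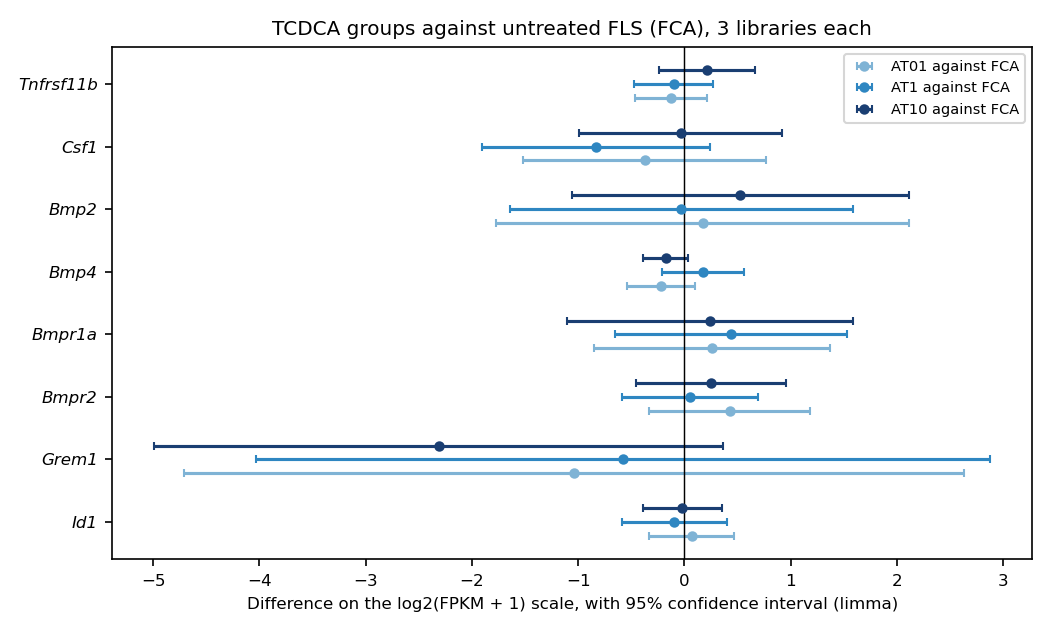
Differences of AT01, AT1 and AT10 from FCA on the log2(FPKM + 1) scale for the 8 tested genes, as points with 95% confidence intervals from limma (3 libraries per group). All 24 intervals include 0, and those of Grem1 are the widest, from -4.99 to 0.37 for AT10.

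When the 9 TCDCA libraries were compared together with FCA, 0 of 8 genes were called (0.0258% of records) and 0 had an unadjusted p under 0.05 (12% of records). The differences ran from -1.31 for Grem1 (SE 1.08, adjusted p = 0.644) to 0.31 for Bmpr1a (SE 0.36, adjusted p = 0.740) by limma. That of Grem1 was -2.57 without replicate 2 of FCA, which met that criterion but not the adjusted p, while with all libraries 0 of 8 genes met it (0.491% of records) and 0 of 8 had groups without overlap (2.86% of records). Tnfrsf11b differed by -0.004 (SE 0.15) and Id1 by -0.02 (SE 0.13). A slope over the 4 doses called 0 of 8 genes (0% of records), with 0 unadjusted p under 0.05 (11.2% of records), and was -0.65 per step for Grem1 (SE 0.40, adjusted p = 0.564) and 0.07 per step for Tnfrsf11b (SE 0.05, adjusted p = 0.654, and 0.011 per step without replicate 3 of AT10) by limma.

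Between the doses the genes were not called either. In AT10 against AT1, 0 of 8 genes were called (0.258% of records), and Csf1 alone had an unadjusted p under 0.05 (6.46% of records). Grem1 was the only one of the 8 without overlap between AT10 and AT1, where 13.9% of records did not overlap. In AT10 against AT01, 0 of 8 were called (0.0689% of records), with 0 unadjusted p under 0.05 (4.97% of records), and Tnfrsf11b was the only one without overlap (11.1% of records). In AT1 against AT01, 0 of 8 were called (0.129% of records), with 0 unadjusted p under 0.05 (3.43% of records) and 0 without overlap (8.6% of records). The study's criterion was met by 0 of 8 genes in each of these comparisons between doses (0.594%, 0.672% and 0.568% of records). The tests of the 8 genes over all 8 comparisons numbered 64, and the smallest adjusted p among them was 0.459 by limma.

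In order of mean level over the 12 libraries, the genes ran from Grem1 (333 FPKM) through Id1 (221 FPKM), Csf1 (122 FPKM), Tnfrsf11b (21.1 FPKM), Bmpr1a (12.4 FPKM), Bmpr2 (4.41 FPKM) and Bmp2 (3.67 FPKM) to Bmp4 (1.94 FPKM). Grem1 exceeded Id1 in only 4 of 12 libraries, so the first position belongs to the high-level libraries. Bmpr2 and Bmp2 could not be ordered, since Bmpr2 was higher in 6 of 12 libraries, and Bmp2 exceeded Bmp4 in 9 of 12. Each other neighbor in the order was higher than the next in 12 of 12 libraries. The share of the spread that lay between the 4 groups was 51.5% for Bmp4, 38.7% for Tnfrsf11b and 33.9% for Csf1. It was 25.0% for Bmpr2, 24.9% for Grem1, 9.36% for Id1, 8.18% for Bmpr1a and 6.74% for Bmp2, and the median over all records tested was 30.2%.

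The other genes of the pathways were taken from 8 lists that hold 91 symbols with the members included, of which 85 had a record and 57 were tested. None of the 57 was called against FCA at any dose by limma. The unadjusted p was under 0.05 for 6 of 57 in AT10 (3 higher and 3 lower), 2 in AT1 (both higher) and 4 in AT01 (2 higher and 2 lower), where it was for 11.9%, 11% and 6.6% of all records. The median difference was -0.03, 0.00 and -0.03, beside -0.01, 0.02 and 0.00 over all records. Against the 9 TCDCA libraries, 4 of the 57 had an unadjusted p under 0.05, where 12% of all records did, and FCA was higher in each of the 4: the BMP co-receptor Eng (difference of TCDCA from FCA -0.24, SE 0.08, adjusted p = 0.329), the antagonist Nbl1 (-0.15, SE 0.06, adjusted p = 0.380), the activin and BMP binding protein Fstl3 (-0.17, SE 0.08, adjusted p = 0.412) and the matrix protein Sparc (-0.13, SE 0.06, adjusted p = 0.380).

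In summed FPKM, the extracellular antagonists and modulators of BMPs exceeded the ligands in every library. These are RNA levels, and the protein and its activity were not tested. The 4 BMP ligands tested were at a few FPKM at most, with Gdf6 at a mean of 2.61 FPKM and Bmp6 at 1.03 FPKM beside Bmp2 and Bmp4. Nbl1, which binds and inhibits BMPs, was at 694 to 908 FPKM, Fstl1, a secreted binding protein, at 171 to 207 FPKM, and Fst, which binds activins and some BMPs, at 47.1 to 64.4 FPKM. The summed FPKM of the 13 antagonists and modulators with a record was 1157 to 2036 per library, and that of the 9 ligands with a record 5.91 to 13.6. The sum of Grem1, Fst, Fstl1 and Nbl1 was 1856 to 1954 FPKM in the 4 libraries of high Grem1 and 1014 to 1191 FPKM in the other 8. Grem1 is part of that sum and defines the split, so the difference restates its separate levels. The part of the assembly in that difference was not tested. Of the 11 antagonists tested, 4 were higher and 7 lower in AT10 than in FCA. The counts were 4 and 7 in AT1, 3 and 8 in AT01, and 2 and 9 in the 9 TCDCA libraries together, with none called. Of all records tested, 48.2%, 53.2%, 50.3% and 50.7% were higher. In AT10, Chrdl1 (chordin-like 1), named after its values were seen, had the smallest adjusted p among them in limma (0.224, difference 0.43, SE 0.10).

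Among the receptors, Acvr1, a type I receptor, was at 15.2 to 20.5 FPKM and Eng at 16.6 to 24.5 FPKM, both above Bmpr1a on average. Of 9 receptors and co-receptors tested, 4 were higher and 5 lower in AT10 than in FCA, 6 and 3 in AT1, and 3 and 6 in AT01, with none called. Of 9 BMP target genes tested, 1 was higher and 8 were lower in AT10, 4 and 5 in AT1, and 3 and 6 in AT01, with none called. Of all records tested, 48.2%, 53.2% and 50.3% were higher. The medians of the target genes were -0.10, -0.08 and -0.14, beside -0.01, 0.02 and 0.00 over all records. Smad6, Smad7 and Bambi among them are also counted in the lists of the intracellular signal and the receptors. Id3, a target gene of the same family as Id1, was at 838, 915 and 750 FPKM in FCA, 827, 844 and 686 FPKM in AT01, 352, 682 and 723 FPKM in AT1, and 818, 318 and 705 FPKM in AT10. Its 2 low libraries were replicate 1 of AT1 and replicate 2 of AT10, and the differences from FCA were -0.55 in AT10 (SE 0.36), -0.57 in AT1 (SE 0.29) and -0.09 in AT01 (SE 0.12). Id2 was at 10.6 to 20.4 FPKM, with a difference of 0.34 in AT10 (SE 0.17).

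**Figure D3:**
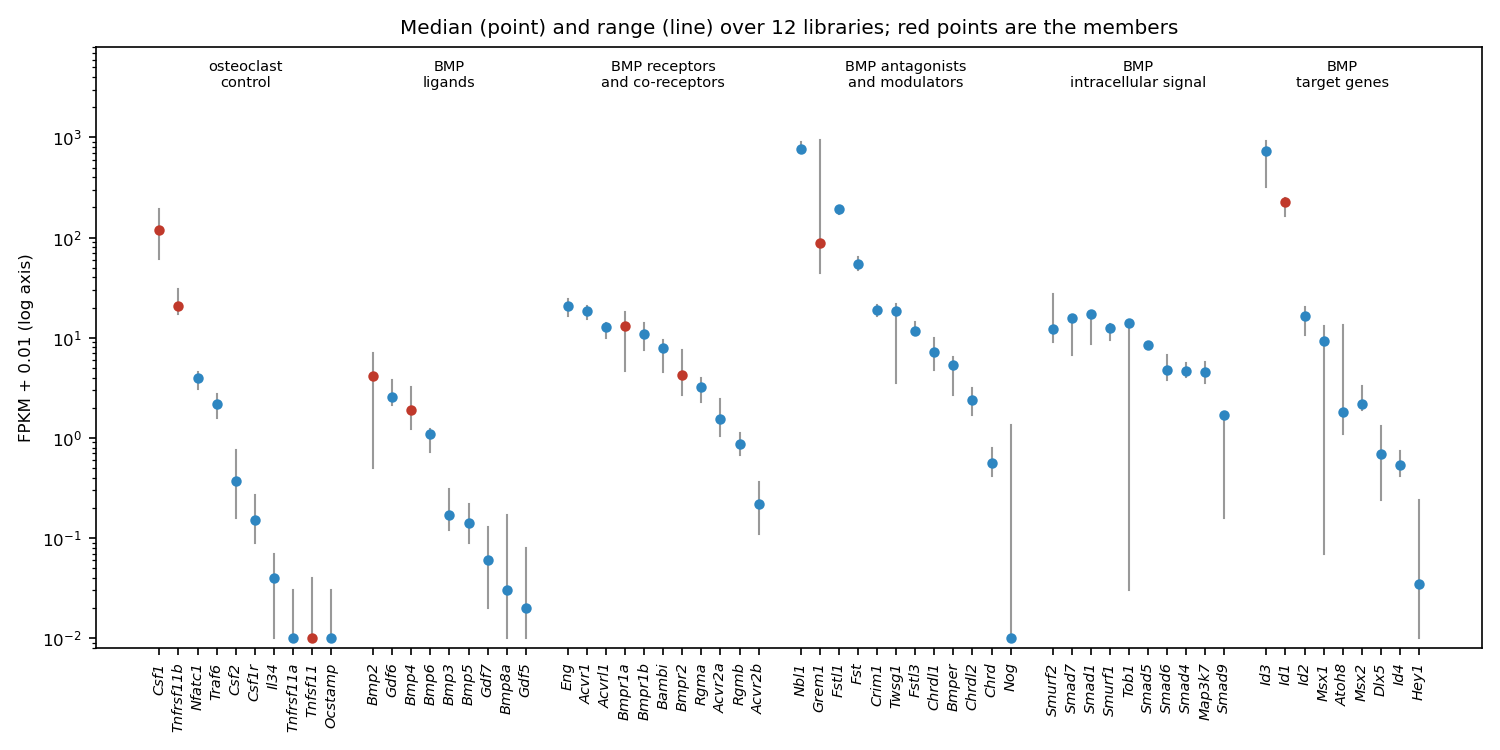
Median (point) and range (line) over the 12 libraries of FPKM plus 0.01, on a log axis, for genes of 6 lists, with the members in red. Nbl1 and Id3 lie near the top, Grem1 has the longest line among the abundant antagonists, and Tnfsf11 lies at the bottom of the osteoclast list.

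Of 4 osteoclast control genes tested, Traf6, an adaptor of the RANK receptor, was at 1.56 to 2.73 FPKM and Nfatc1, a transcription factor of osteoclast differentiation, at 3.08 to 4.53 FPKM. Their differences in AT10 were 0.22 (SE 0.08, adjusted p = 0.408) and -0.17 (SE 0.11, adjusted p = 0.559) by limma. Of the Wnt antagonists and co-receptors, Dkk3 was at 11.01 FPKM in replicate 1 of AT10 and at 25.7 to 32.0 FPKM in the other 11 libraries, and Lrp5, a co-receptor for Wnt, at 15.0 to 18.2 FPKM. Of 7 Wnt antagonists and co-receptors tested, 4 were higher and 3 lower in AT10 than in FCA. The counts were 4 and 3 in AT1 and 6 and 1 in AT01. Of 6 osteoblast genes, 4 were higher and 2 lower in AT10, 3 and 3 in AT1, and 5 and 1 in AT01. None was called in either list. In AT10, AT1 and AT01, groups did not overlap for 1, 0 and 3 of the 7 Wnt genes. For the 6 osteoblast genes the counts were 1, 3 and 1. Of all records tested, 48.2%, 53.2% and 50.3% were higher, and 19.9%, 19.9% and 14% did not overlap. Among the osteoblast genes, Sparc was at 1706 to 2209 FPKM and Spp1 (osteopontin) at 852 to 2222 FPKM. Sp7, the transcription factor that defines osteoblasts, was at no more than 0.14 FPKM, and Alpl (alkaline phosphatase) at no more than 0.46 FPKM.

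Within the intracellular signal, Smad1 had the smallest p of all 57 genes in AT10 against FCA, and it is named because its values stood out. Smad1 (MSTRG.8593), which carries the BMP signal to the nucleus, was at 16.97, 17.52 and 18.33 FPKM in FCA, 17.84, 17.38 and 10.12 FPKM in AT01, 17.76, 18.35 and 16.16 FPKM in AT1, and 8.65, 10.13 and 10.48 FPKM in AT10. The 3 AT10 libraries lay below all FCA and AT1 libraries, and replicate 3 of AT01 lay among them. Groups did not overlap for 9 of the 57 genes in AT10 against FCA and for 9 in AT10 against AT1. Of all records tested, 19.9% and 13.9% did not overlap in these comparisons. The difference of AT10 from FCA was -0.79 on the log2 scale (SE 0.09, 95% interval -1.01 to -0.58), with an adjusted p of 0.0607 in limma and 0.0520 to 0.334 over the alternatives. AT10 differed from AT1 by -0.78 (SE 0.09, adjusted p = 0.0710 by limma, 0.0468 to 0.649 over the alternatives). AT01 differed from FCA by -0.25 (SE 0.22, adjusted p = 0.825) and AT1 by -0.02 (SE 0.07, adjusted p = 0.943) in limma. Smad5, which acts in parallel to Smad1, was at 7.69 to 8.87 FPKM and Smad4, the common partner, at 4.04 to 5.64 FPKM. Of 10 genes of the intracellular signal tested, 3 were higher and 7 lower in AT10 than in FCA. The counts were 6 and 4 in AT1 and 5 and 5 in AT01, with none called. The inhibitor Smad7 was at 6.64 FPKM in replicate 2 of AT01 and at 14.5 to 17.0 FPKM elsewhere, and Smurf2, a ubiquitin ligase for SMADs, at 25.6 to 27.2 FPKM in 3 libraries (AT1 replicate 2 and AT01 replicates 1 and 2) and at 9.02 to 13.5 FPKM in the other 9.

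**Figure D4:**
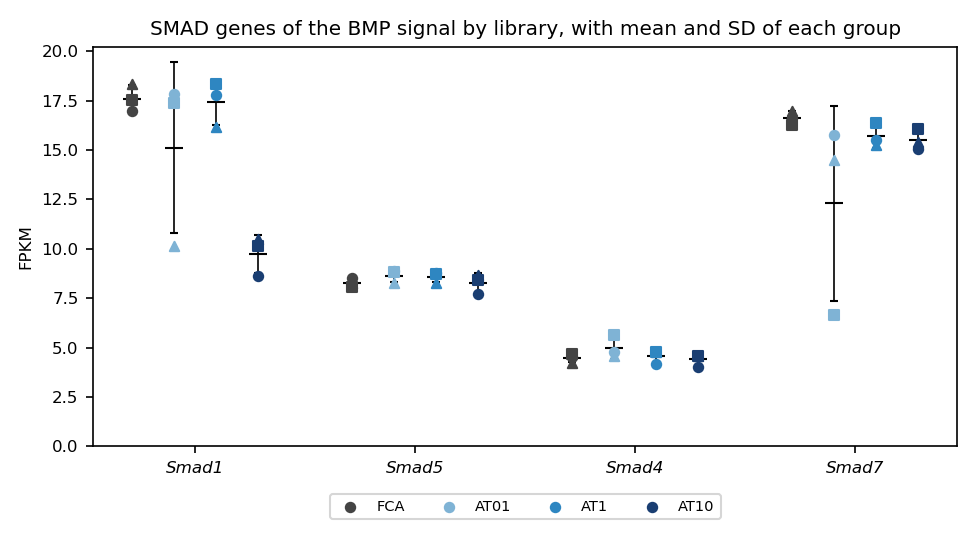
FPKM of Smad1, Smad5, Smad4 and Smad7 by group (FCA, AT01, AT1 and AT10), with 1 symbol for each library and the mean and SD of each group of 3. The 3 AT10 libraries of Smad1 lie at 8.65 to 10.48 FPKM and its 3 FCA libraries at 16.97 to 18.33 FPKM, while Smad5 and Smad4 show no such gap. In AT10 against FCA, 19.9% of all records tested do not overlap.

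Relations between ligand, antagonist and target were computed on the log2 scale for 4 pairs. Over the 12 libraries, r was 0.23 for Bmp2 with Id1 (permutation p = 0.485, adjusted over the 4 pairs 0.545) and 0.19 for Bmp4 with Id1 (permutation p = 0.545, adjusted 0.545). Spearman's rho was 0.22 (permutation p = 0.487, adjusted 0.487) and 0.52 (permutation p = 0.0847, adjusted 0.153). Since Grem1 fell into separate clusters, its relations were computed within the 8 libraries of low Grem1. There, r was -0.58 for Grem1 with Id1 (permutation p = 0.125, adjusted 0.249) and -0.63 for Bmp2 with Grem1 (permutation p = 0.0971, adjusted 0.249), with rho of -0.62 (permutation p = 0.115, adjusted 0.153) and -0.67 (permutation p = 0.0846, adjusted 0.153). Without the 2 libraries farthest from the median of the first gene, r was 0.14, 0.21, -0.51 and -0.43 in the same order of pairs. With the mean of each group removed, r was 0.23, 0.56, -0.21 and -0.65. None of the 4 relations passed the correction.

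The records whose pattern over the 12 libraries was most like that of a member were found by Pearson's r on the log2 scale among 6649 named records averaging 5 FPKM or more, as a description in which all points share their libraries. For Tnfrsf11b they were Gadd45a (r = 0.91) and Tnr (r = 0.89), for Csf1 Pef1 (0.85) and Bscl2 (0.84), and for Id1 Chtopl1 (0.93) and Hexdc (0.87). For Bmp2 they were Cmpk1 (r = 0.84) and R3hdm4 (0.77), and for Bmp4 Trappc4 (0.85) and Tagln2 (0.85). For Bmpr1a they were Aatf (r = 0.91) and Hmox1 (0.89), for Bmpr2 Rexo4 (0.88) and Clns1a (0.83), and for Grem1 Dnm1l (0.83) and Anxa4 (0.81). No other member was among the 2 records most like any member.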

How the data were processed

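Poly(A) RNA of 12 libraries of rat FLS (3 per group) was analysed. The authors deposited FPKM to 2 decimals for 22442 gene records, made by HISAT2 alignment and StringTie and Ballgown estimation; per the labels cutadapt and edgeR were also used. The genome build is not given in the sources used here, and read counts were not used here. Groups were taken from the labels. The members and all gene lists were chosen with earlier results of these data known.

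The 11611 records averaging 1 FPKM or more were tested on log2(FPKM + 1) with limma 3.58.1 in R 4.3.3 (trend of variance), with only the libraries of the comparison in the fit, and p-values were adjusted (Benjamini-Hochberg) over all of them. The fold change on this scale understates changes of low genes. Exact permutation tests were two-sided. No scaling was added, the median log2 change over all records being between -0.01 and 0.02. A record was said to fall at 2 levels where the sorted log2 values had a gap of 1 or more that exceeded the range on each side of it, with no fewer than 2 libraries per side. Python 3.11.15, NumPy 2.4.6, SciPy 1.17.1, pandas 2.3.3 and Matplotlib 3.10.9 were used otherwise. Tests were tried on simulated data.

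Named were all members and, of each list, the 2 other genes of highest mean FPKM, any gene called against FCA and the 2 of smallest unadjusted p under 0.05 between TCDCA and FCA. Fst, Chrdl1, the macrophage and osteoclast markers, Smad1, Smad4, Smad5, Sp7, Alpl and Tnfrsf11a were named after their values were seen, and 1 gene of the lists is not reported here. For Grem1 the planned relation over 12 libraries was replaced by 1 within the 8 libraries of low level, since its values form clusters, and the ratio of Tnfsf11 to Tnfrsf11b is given as values only. Promoter sequences are from RefSeq (GRCr8). The alternatives comprised a pseudocount of 0.1, omission of the filter, a filter at 10 FPKM, 1 fit over 12 libraries, a Ballgown-style F test, median-of-ratios scaling, FPKM summed by name, the replicate number as a block and each library left out.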

Additional observations from a re-analysis of the deposited data

Results flagged for a closer look

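Dixon's criterion was applied to the 9 TCDCA libraries of 34 genes given by value, and it marked 7 of them. By chance about 1 in 20 such groups is marked, for genes chosen without regard to their values. Several of the 34 were named after their values were seen, so the count cannot be set against that rate. The 9 libraries span 3 doses, and the genes share them. Osteoprotegerin (Tnfrsf11b) in replicate 3 of AT10 was 30.48 FPKM, far above the other 8 TCDCA libraries, which lay between 17.18 and 22.62 FPKM. Id1 in replicate 1 of AT1 was 165.11 FPKM, far below the other 8, which lay between 206.89 and 249.37 FPKM. In that library Id3 was at 352 FPKM, also low. For RANKL (Tnfsf11), 8 of the 9 libraries were listed at 0, so any value above 0 would be marked. Its value was 0.03 FPKM in replicate 1 of AT10. The same library had the lowest Dkk3, at 11.01 FPKM against 25.7 to 32.0 FPKM, and the highest Cd68, at 2.91 FPKM against 1.66 to 2.29 FPKM. Replicate 2 of AT01 had the lowest Smad7, at 6.64 FPKM against 14.5 to 16.4 FPKM, and the highest Smad4, at 5.64 FPKM. Groups of 3 libraries are too small for the criterion.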

How the results depend on the processing

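Without replicate 2 of FCA, Grem1 was called in AT10 against FCA (0 to 1 members called over the libraries left out in turn), and the count meeting the criterion of the study ranged from 0 to 1 in AT10, AT1 and TCDCA against FCA and in AT10 against AT1. With a pseudocount of 0.1, Bmp2 in AT1 against FCA was 0.022, a reversed sign near 0. No other alternative with all libraries turned a direction or, except for Smad1, changed a call. The filters, the fit over 12 libraries and the block cannot change a difference in this balanced design. The Ballgown-style test was given with the difference of the plain fit. Only the pseudocount, the scaling and the sum by name could therefore turn a direction. Smad1 in AT10 against AT1 had an adjusted p of 0.0468 with a filter at 10 FPKM by limma, since fewer records were tested. Leaving out 1 library in turn turned the sign of differences that were not called. Their ranges against FCA were, in AT10, -0.44 to 0.19 for Csf1, -0.18 to 0.070 for Id1, -0.21 to 0.69 for Bmpr1a and -0.063 to 0.99 for Bmp2. In AT1 they were -0.62 to 0.46 for Bmp2, -1.84 to 0.088 for Grem1, -0.016 to 0.73 for Bmpr1a, -0.12 to 0.33 for Bmpr2, -0.23 to 0.0043 for Tnfrsf11b and -0.26 to 0.069 for Id1. In AT01 they were -0.20 to 0.55 for Bmpr1a, -0.42 to 0.89 for Bmp2 and -0.095 to 0.16 for Id1. In TCDCA they were -0.18 to 0.076 for Id1, -0.13 to 0.10 for Tnfrsf11b, -0.14 to 0.60 for Bmpr1a and -0.37 to 0.54 for Bmp2. The r of Bmp2 with Id1 ranged from -0.016 to 0.40 and that of Grem1 with Id1 from -0.73 to -0.52, with an unadjusted permutation p of 0.0471 without replicate 2 of AT1. The cause of these shifts was not tested.

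The replicate numbers are shared by the groups, but the deviations of same-numbered libraries from their group means correlated at -0.11 to 0.09 over 18 pairs of libraries (median 0.003). The study calls the numbers repeated sets without saying what a set shared, so they were not taken to pair the libraries. With the replicate number as a block, 0 members were called in every comparison, and Grem1 in AT10 against FCA was -2.31 with an adjusted p of 0.496 by limma. For Tnfrsf11b, replicate 3 was the highest and replicate 2 the lowest library in 4 of 4 groups. Under the block, its AT10 libraries differed from FCA by 0.21 with an adjusted p of 0.477 by limma. AT10 was above FCA in 3 of 3 same-numbered pairs for Tnfrsf11b, Bmp2 and Bmpr1a. The count was 2 of 3 for Bmpr2, 1 of 3 for Csf1, Grem1 and Id1, and 0 of 3 for Bmp4. These counts are a description only, since the libraries were not taken as paired and no share over all records is given. Since the read counts behind the FPKM are unknown, counting error cannot be given for low genes such as Bmp4 and Tnfsf11, and 3 libraries per group leave intervals as wide as those of Grem1.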
